A study of Mus musculus with 4 samples.

Results

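In the mouse pituitary, Txnip, the gene of a thioredoxin-binding protein, was called higher after a high-fat diet in 3 hormone cell classes (edgeR). None of the other 9 genes of thiol, glutathione and heme antioxidant defence examined here was called by the main edgeR test in any class. Only the gonadotrope-like Txnip call held in every alternative run, and another test, DESeq2, called Hmox1 lower in somatotrope-like cells. In that class DESeq2 called many more genes than edgeR. The 10 genes were taken by symbol from the 32285 genes of each count matrix: Srxn1, Txnrd1, Prdx1, Txn1, Gclc, Gclm, Gstm1, Nqo1, Hmox1 and Txnip. All 10 were found once in each matrix. Pituitary cells came from wild-type C57BL/6J males fed for 12 weeks, either with a control diet (CTRL) or with a diet high in fat (HFD). Each diet has 2 droplet libraries (10x Genomics 3' chemistry), numbered 1 and 2. The labels give neither the age of the mice, nor what the control diet was, nor how many glands entered a library, so the p-values below measure the spread between these libraries, which may be technical.

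Cells meet hydrogen peroxide with a relay of thiol proteins: peroxiredoxins reduce the peroxide, thioredoxin reduces the peroxiredoxin, and thioredoxin reductase recharges thioredoxin with electrons from NADPH. Txnip binds the active site of thioredoxin and also restrains glucose uptake, and its transcription is known to follow glucose through the factors MondoA and ChREBP. Many of the other genes are known targets of NRF2, a transcription factor that is freed from its partner Keap1 under oxidative stress and binds antioxidant response elements. The pituitary's hormone cells fold and secrete large amounts of disulfide-bonded hormone.

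The promoters are shown for the gene whose difference passed the test (Txnip) and for 2 genes of the peroxiredoxin relay that the results below describe (Srxn1 and Prdx1). Each is the 250 bases before the annotated start in RefSeq (GRCm38.p6), and capitals mark a motif match. In Txnip (chr3:96557707-96557956, plus strand) the capitals mark 2 copies of CACGNG set 5 bases apart, the layout of a carbohydrate response element. In Srxn1 (chr2:152105274-152105523, plus strand) they mark 2 AP-1 motifs (TGANTCA). In Prdx1 (chr4:116685349-116685598, plus strand) they mark an AP-1 motif and, nearer the start, an AP-1 motif that overlaps an antioxidant response element core (TGACNNNGC).
Txnip: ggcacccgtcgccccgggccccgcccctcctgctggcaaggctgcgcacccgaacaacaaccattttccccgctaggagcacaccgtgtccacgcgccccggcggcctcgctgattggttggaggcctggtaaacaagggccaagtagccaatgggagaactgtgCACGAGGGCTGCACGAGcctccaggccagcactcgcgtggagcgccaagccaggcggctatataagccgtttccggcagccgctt
Srxn1: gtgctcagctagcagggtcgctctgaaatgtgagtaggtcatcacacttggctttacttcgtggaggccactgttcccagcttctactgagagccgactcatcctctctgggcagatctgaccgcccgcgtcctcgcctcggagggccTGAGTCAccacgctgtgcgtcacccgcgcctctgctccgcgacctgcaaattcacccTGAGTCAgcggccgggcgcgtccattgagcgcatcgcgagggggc
Prdx1: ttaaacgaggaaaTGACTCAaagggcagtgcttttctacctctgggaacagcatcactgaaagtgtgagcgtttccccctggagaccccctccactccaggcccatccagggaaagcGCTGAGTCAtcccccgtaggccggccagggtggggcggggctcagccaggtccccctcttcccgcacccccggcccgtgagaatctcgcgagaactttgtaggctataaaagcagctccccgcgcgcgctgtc

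The table of promoters held 11 windows for 8 of the 10 genes. On both strands, an antioxidant response element core was present in 3 of the 11 windows (those of Prdx1 and Gclm and 1 of the Txnrd1 windows) and in 10.2% of all 32851 promoters of the same length. No form of the core other than TGACNNNGC was searched. The Srxn1 AP-1 match nearer the start runs on as TGAGTCAgc, with G where that form has C, and was not counted. An AP-1 motif was present in 2 of the 11, against 6.75% of all promoters. The pair of CACGNG copies was present in the Txnip window alone among the 11, and in 0.0457% of all promoters (15 windows). This last motif was chosen after the Txnip sequence had been read. The symmetrical E-box CACGTG was in none of the 11 windows and in 6.02% of all promoters. The matches are descriptions of sequence and say nothing of binding.

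The cells were sorted into classes by marker genes, and a class carries the suffix "-like" because it rests on RNA alone. For every gene, UMIs (unique molecular identifiers, the counted RNA molecules) were summed over the cells of a class in a library and given as CPM, counts scaled to 1000000 UMIs in that sum. Of 34737 deposited barcodes, 23975 were kept as cells (4347, 6827, 5874 and 6927 in CTRL 1, CTRL 2, HFD 1 and HFD 2), with median UMI totals of 10084 to 17971 per cell. Deposited totals were between 74758237 and 101903367 UMIs per library. HFD 1 shared 3116 barcodes with HFD 2 and 1423 with CTRL 2, while the other library pairs shared 14 to 22. In the shared barcodes HFD 1 carried a median of 817 UMIs where HFD 2 carried 14660. Barcodes that carried at least 5 times more UMIs in another library were therefore removed from the lower library, which took 1833 cells (3.28% of the UMIs) from HFD 1 and 87 from CTRL 2. No antioxidant gene's call changed when they were kept. In 10 classes every library held at least 30 cells, from 52 to 194 mesenchymal-like cells to 1455 to 2866 somatotrope-like cells per library. The defining markers led the clusters of each class, apart from a somatotrope-like cluster led by Dnajb1 and other genes and a small stem-like cluster, which were named by marker scores.

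Most of the 10 genes were highest in stem-like cells, the marginal-zone cells that renew the gland. The mean CPM over the 4 libraries was highest there for Txnrd1, Prdx1, Txn1, Gclc, Gclm, Gstm1 and Txnip. Srxn1 was highest in corticotrope-like cells, Nqo1 in somatotrope-like cells and Hmox1 in macrophage-like cells. For Srxn1, Prdx1, Nqo1 and Txnip the library values of the next class overlapped those of the highest. Nqo1 ran from 13.9 to 18.25 CPM in somatotrope-like and from 6.54 to 15.4 in mesenchymal-like cells. The classes were built from the same RNA, so these orders are descriptions without a test. Hmox1 had 1, 0, 0 and 1 UMIs in thyrotrope-like cells of CTRL 1, CTRL 2, HFD 1 and HFD 2, too few for a ratio. Of the other genes the widest range was that of Gstm1, whose stem-like mean was 293 times its thyrotrope-like mean, and the narrowest that of Prdx1, at 4.07 times between stem-like and somatotrope-like cells.

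**Figure D1:**
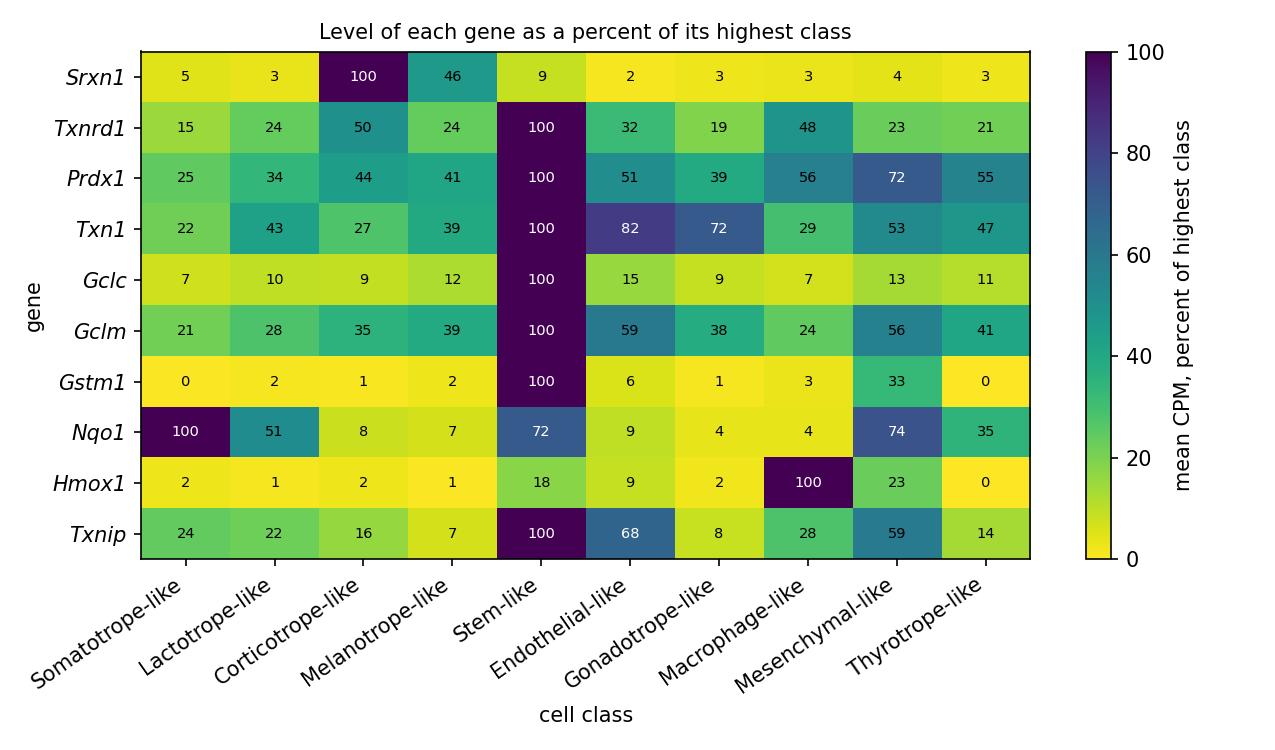
Mean CPM over the 4 libraries for each gene (rows) in each cell class (columns), as a percent of that gene's highest class. The stem-like column holds 100 for 7 of the 10 genes, while Srxn1 peaks in corticotrope-like, Nqo1 in somatotrope-like and Hmox1 in macrophage-like cells.

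The diets were compared in each class and in the whole gland with edgeR's quasi-likelihood test on the summed counts, adjusted over all genes tested (Benjamini-Hochberg), and a gene passed at an adjusted p under 0.05. Log2 differences are HFD over CTRL with their standard error (SE). Of 100 gene-class pairs, 93 had counts high enough to test. Only 3 pairs passed, all of Txnip and all higher in HFD, while 0.399% of all gene-class pairs passed. Among 88 pairs of at least 10 CPM, the libraries of the 2 diets did not overlap and the log2 difference was at least 0.5 in 14 (15.9%), of which 6 were higher and 8 lower in HFD. Over all genes this held for 5.51% of gene-class pairs. The 14 pairs share cells, libraries and genes and are not independent. The 10 genes were also chosen with earlier results of these data known, so these shares are descriptions.

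**Figure D2:**
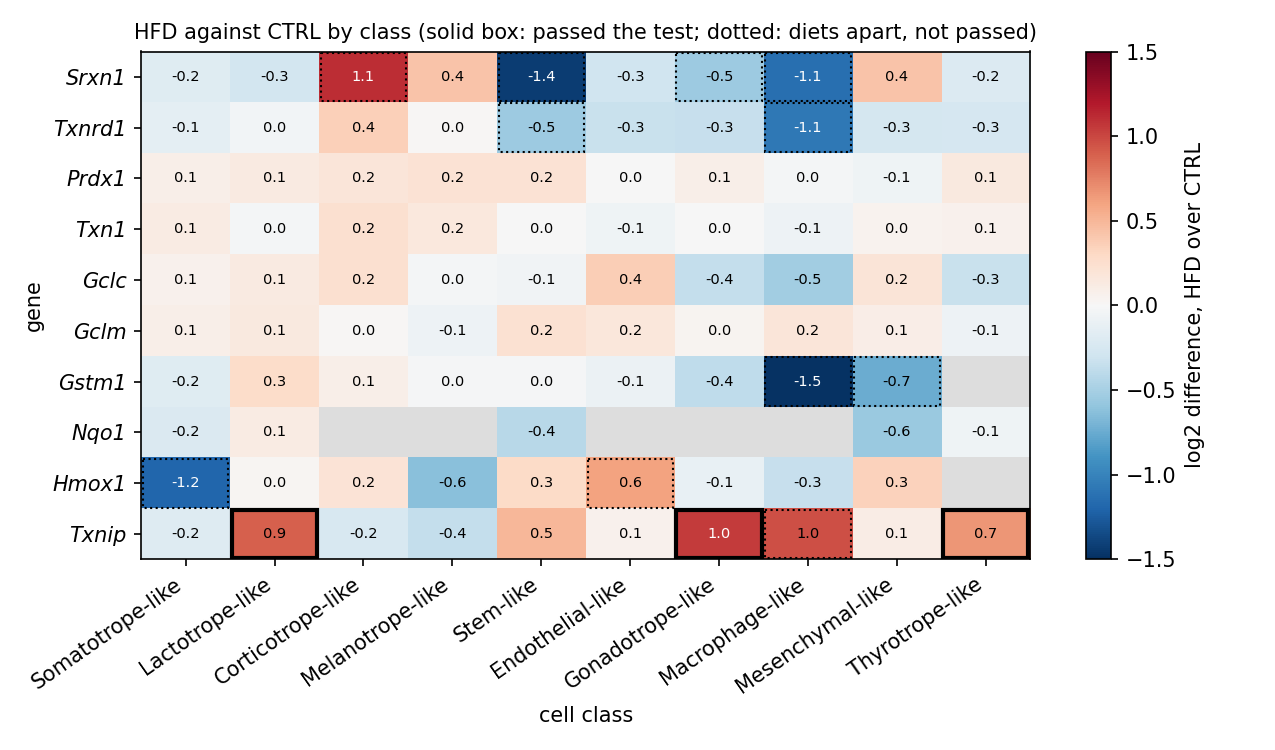
Log2 difference, HFD over CTRL, of each gene (rows) in each class (columns); grey cells had too few counts to test. Solid boxes mark the 3 pairs that passed the test, all of Txnip, and dotted boxes the 11 others whose libraries did not overlap with a log2 difference of at least 0.5.

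Txnip (ENSMUSG00000038393, chr3:96557957-96561883, plus strand, GENCODE vM21) showed its largest tested difference in gonadotrope-like cells, which make LH and FSH. Its level there was 58.0 and 55.8 CPM in the CTRL libraries and 97.3 and 114 in the HFD libraries, numbers 1 and 2 in that order. Both HFD libraries lay above both CTRL libraries, and the CTRL libraries lay close together. The log2 difference was 1.04 (SE 0.10, adjusted p = 0.00546, n = 2 per diet, edgeR), a 2.06-fold rise. In this class 1.69% of all tested genes passed, and 1 of the 9 antioxidant genes tested did. Txnip passed in gonadotrope-like cells under every alternative run, with log2 differences between 0.94 and 1.14.

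The gonadotrope-like level was low against the rest of the gland, at 8.37% of the stem-like mean, and the part of RNA free in the droplets was not tested. Thinned to 2000 UMIs per cell, the share of gonadotrope-like cells with a Txnip UMI was 10.8%, 7.94%, 15.0% and 16.5% in CTRL 1, CTRL 2, HFD 1 and HFD 2 (63.7%, 51.3%, 71.0% and 73.2% unthinned, at median depths of 25472 to 31545 UMIs). Melanotrope-like cells, the class with the least Txnip, gave 7.10% to 13.9% thinned, at median depths of 13716 to 19641 UMIs. The CTRL shares in gonadotrope-like cells lay within that range and the HFD shares above it. Markers of the 2 classes richest in Txnip were no higher in HFD: the 10 stem markers summed to 29.2 and 20.3 CPM in CTRL and 17.9 and 19.4 in HFD, with 2 of the 10 at 0 in each library, and the 8 endothelial markers to 49.2 and 14.8 in CTRL and 10.9 and 11.2 in HFD, with 1 at 0 in HFD 1. Red blood cell markers (5 genes) summed to 23.95 to 42.7 CPM in the other libraries and 1456 in HFD 2.

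In lactotrope-like cells, which make prolactin, Txnip stood at 103.5 and 188 CPM under CTRL and 266 and 293 under HFD. The diets did not overlap, but the CTRL libraries were farther apart than the HFD libraries. The log2 difference was 0.89 (SE 0.19, adjusted p = 0.0336, edgeR), where 1.4% of all genes passed and 1 of 10 antioxidant genes did. The order held in both lactotrope-like clusters: 103, 182, 247 and 289 CPM in CTRL 1, CTRL 2, HFD 1 and HFD 2 in the one, and 105, 199, 284 and 297 in the other. The call was lost with putative doublets kept (adjusted p = 0.0573), with the listed genes left out of the clustering (adjusted p = 0.0743) and with DESeq2 (adjusted p = 0.758). The difference fell to 0.54 without CTRL 1 and stood at 1.36 without CTRL 2.

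In thyrotrope-like cells, which make TSH, Txnip stood at 89.0, 118, 157 and 166 CPM in CTRL 1, CTRL 2, HFD 1 and HFD 2. The HFD libraries again lay above both CTRL libraries. The log2 difference was 0.66 (SE 0.14, adjusted p = 0.0389, edgeR), and 0.224% of all genes passed, 1 of 8 antioxidant genes among them. It rests on 76 to 135 cells per library. The call was lost without CTRL 1 (log2 0.48, adjusted p = 0.539), with doublets kept (adjusted p = 0.0663), with the crossed pairing of libraries (adjusted p = 0.193) and with DESeq2 (adjusted p = 1).

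**Figure D3:**
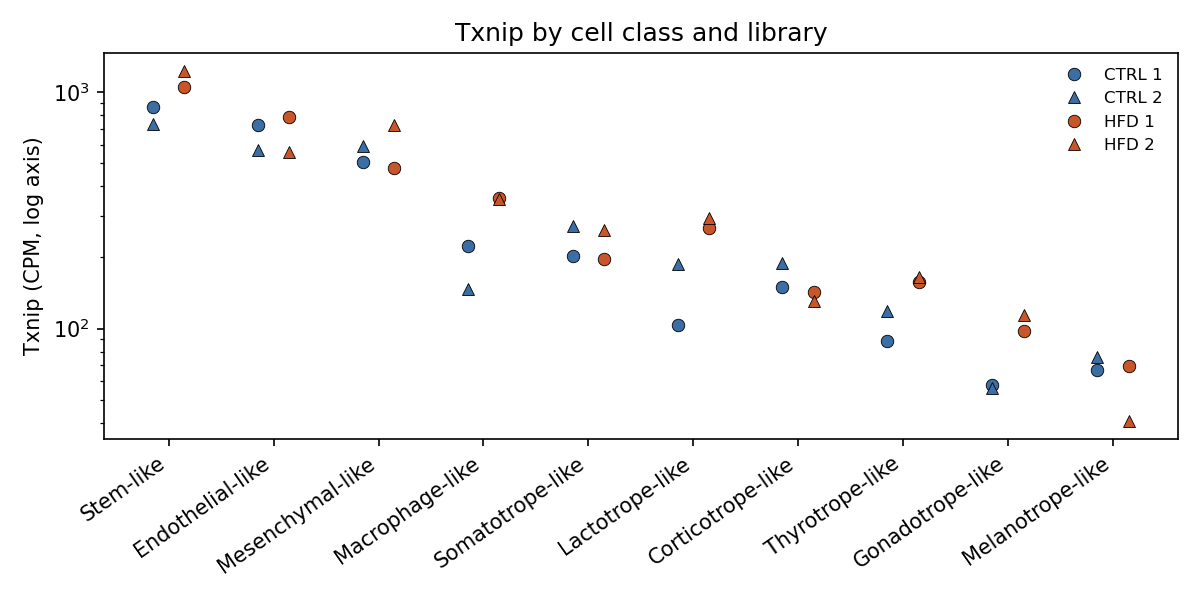
Txnip level (CPM, log axis) in each class, with 1 point per library and classes ordered by mean level. The HFD points (orange) lie above both CTRL points (blue) in the stem-like, macrophage-like, lactotrope-like, thyrotrope-like and gonadotrope-like classes and overlap or lie below in the others.

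Other classes had more Txnip and no call. Macrophage-like cells had 223 and 147 CPM in CTRL and 358 and 354.5 in HFD. The log2 difference was 0.97 (SE 0.22, adjusted p = 0.445), close in size to that of the gonadotrope-like class, in 106 to 161 cells per library. Beside it, granulocyte markers (6 genes) in these cells summed to 32.1 and 34.1 CPM in CTRL and 2035 and 52.1 in HFD, so that HFD 1 stood apart, and the red blood cell markers to 7737 in HFD 1 against 45.9 to 338 in the others; their part in the difference was not tested. Stem-like cells had 865 and 733 CPM in CTRL and 1055 and 1234.5 in HFD (log2 0.50, SE 0.16, adjusted p = 0.904). Corticotrope-like cells lay the other way, at 151 and 189 CPM in CTRL and 143.5 and 130 in HFD, and the diets overlapped in somatotrope-like, melanotrope-like, endothelial-like and mesenchymal-like cells.

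In the whole gland, where all kept cells of a library were summed, Txnip stood at 235, 244, 278 and 313 CPM in CTRL 1, CTRL 2, HFD 1 and HFD 2. Its log2 difference was 0.27 (SE 0.09, adjusted p = 0.471). In a bulk sum, fewer cells of a type and less RNA per cell cannot be told apart. An equal-weight mean of the 10 class levels gave 299.5, 294, 361 and 388 CPM, again with no overlap. Txnip's overlapping antisense gene Gm15441 is counted separately, and whether counting used the strand is not given in the sources used here. It had 4.82, 3.85, 6.95 and 4.997 CPM in gonadotrope-like cells in the same library order. In lactotrope-like cells it had 6.25, 8.60, 12.9 and 12.1 CPM, without overlap of the diets (log2 0.69, adjusted p = 0.0742), and its part in the Txnip difference was not tested.

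The diet difference of Txnip was not the same in the 2 most frequent classes, lactotrope-like and somatotrope-like cells. The lactotrope-like minus somatotrope-like log2 difference was 1.14 (SE 0.15, adjusted p = 0.0188, edgeR, library as a block), where 0.885% of all genes passed and 2 of the 10 antioxidant genes did, Txnip and Hmox1. Somatotrope-like cells had 203.5, 271, 197 and 260.5 CPM of Txnip in CTRL 1, CTRL 2, HFD 1 and HFD 2, with overlapping diets. Without HFD 1 the difference of differences was 1.03 and did not pass (adjusted p = 0.0791). The somatotrope-like cells were spread unevenly over 3 clusters: cluster 0 had 874 and 751 cells in CTRL and 778 and 961 in HFD, cluster 2 had 81 and 100 against 1210 and 1311, and cluster 3 had 500 and 1148 against 350 and 594. The largest was cluster 0 in CTRL 1, cluster 3 in CTRL 2 and cluster 2 in both HFD libraries. Within clusters 0, 2 and 3 the Txnip levels of the diets also overlapped.

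Beside the 3 Txnip calls, the summed level of 26 immediate-early genes, which respond within minutes to stimulation and to tissue handling, was lower in both HFD libraries. They summed to 4601 and 5434 CPM in CTRL and 2984 and 3314 in HFD in gonadotrope-like cells, where 7 of 25 tested fell (Jun, Fos, Fosb, Egr1, Zfp36, Gadd45b and Socs3) and none rose, while 0.65% of all genes tested fell. The sums were 7163 and 7642 against 6548 and 5867 in lactotrope-like cells (2 of 25 fell, Fosb and Egr4, and 0.79% of all genes), and 1162 and 1524 against 889 and 1097 in thyrotrope-like cells (2 of 17 fell, Fosb and Gadd45b, and 0.132% of all genes). The list's lowest median log2 difference over the classes, -1.32, was in somatotrope-like cells, where the Txnip diets overlapped. There 4 of 25 tested fell, as did 0.048% of all genes. Of 12 heat shock genes, 4 fell in gonadotrope-like cells (Dnajb1, Dnaja1, Hsph1 and Hsp90aa1), and Hspb1 rose in lactotrope-like cells. Their part in the Txnip differences was not tested. These lists were chosen with earlier results of these data known.

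The peroxiredoxin relay itself did not pass the test in any class. Srxn1 (ENSMUSG00000032802, chr2:152105516-152111376, plus strand), the enzyme that rescues overoxidized peroxiredoxins, was highest in the 2 classes that make POMC, the precursor of ACTH. Corticotrope-like cells had 527, 1002, 1537 and 1579.5 CPM in CTRL 1, CTRL 2, HFD 1 and HFD 2. Melanotrope-like cells had 377, 550, 775 and 425. These 2 classes overlapped each other, and every library of either lay above every library of the next class, stem-like cells at 53.3 to 203 CPM. In corticotrope-like cells both HFD libraries were above both CTRL libraries, CTRL 1 was about as far from CTRL 2 as CTRL 2 from HFD, and the log2 difference of 1.10 (SE 0.23, adjusted p = 0.124) did not pass. There 0.191% of all genes passed and 0 of 9 antioxidant genes. At an unadjusted p under 0.05 there were 2 of the 9, against 9.66% of all genes. The Srxn1 difference passed with the replicate numbers as a block (1.18, adjusted p = 0.00984) and with the crossed pairing (1.18, adjusted p = 0.0025). It also passed with no low-count filter (1.11), but not with DESeq2 (1.11, adjusted p = 0.496). It was 0.71 without CTRL 1 and 1.65 without CTRL 2. Each of those 2 fits holds 1 CTRL library and cannot measure the spread between CTRL libraries. Ier3, an immediate-early gene, rose in the same cells from 17.4 and 17.3 CPM to 54.8 and 82.9 (log2 2.07, adjusted p = 0.00603, edgeR), and the heat shock co-chaperone gene Bag3 from 32.1 and 37.4 to 63.9 and 62.6 (log2 0.94, adjusted p = 0.0289, edgeR). Each was the only gene of its list to pass there. These were 1 of 26 immediate-early genes (list median log2 -0.10) and 1 of 12 heat shock genes (0.23), while 0.167% of all genes rose. Their part in the Srxn1 difference was not tested.

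Srxn1 lay the other way in 3 further classes, none past the main test. Stem-like cells had 91.6 and 203 CPM in CTRL and 59.2 and 53.3 in HFD (log2 -1.43, SE 0.39, adjusted p = 0.904). That difference was -0.69 without CTRL 2, -1.915 without CTRL 1 and -0.94 with putative doublets kept. Macrophage-like cells had 48.1 and 40.0 against 19.99 and 19.4 (log2 -1.14, adjusted p = 0.587). Gonadotrope-like cells had 32.3 and 44.7 against 24.6 and 23.2 (log2 -0.54, adjusted p = 0.116), with -0.28 without CTRL 2 and -0.78 without CTRL 1. With no low-count filter edgeR called the stem-like (adjusted p = 0.00532) and gonadotrope-like (adjusted p = 0.0149) differences. The whole-gland level was 108, 192, 208 and 201 CPM (log2 0.41, SE 0.24, adjusted p = 0.615), with CTRL 1 apart from the other 3 libraries. The opposite directions in corticotrope-like and stem-like cells were not tested against each other.

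**Figure D4:**
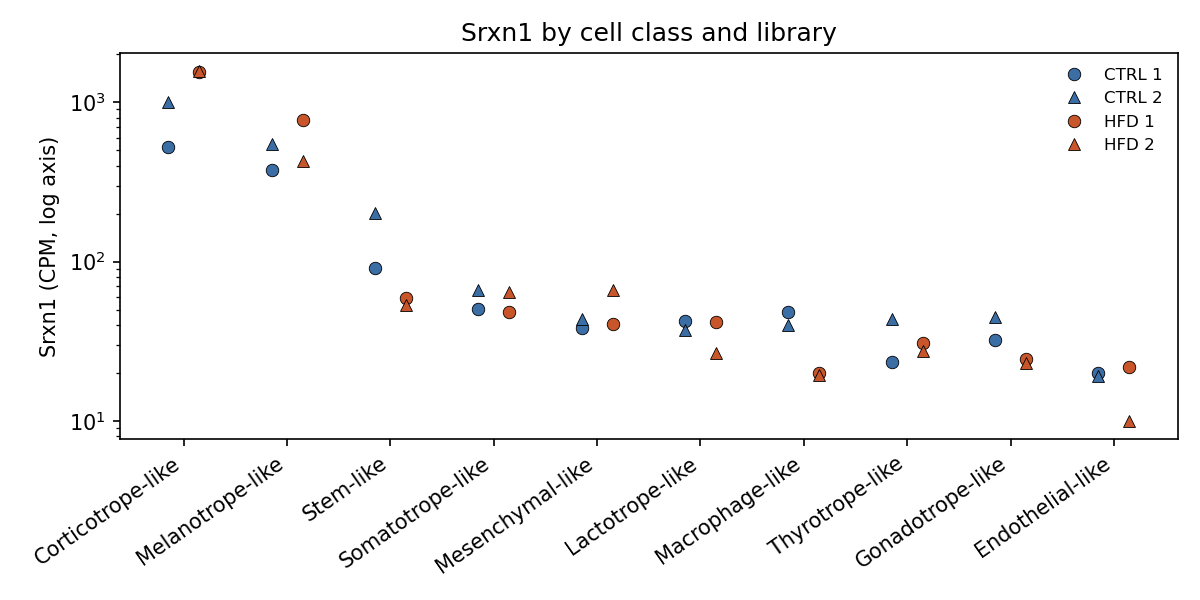
Srxn1 level (CPM, log axis) in each class, with 1 point per library and classes ordered by mean level. Corticotrope-like and melanotrope-like cells sit above all other classes, and in corticotrope-like cells both HFD points lie above both CTRL points.

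Prdx1 (chr4:116685544-116700822), an abundant cytosolic peroxiredoxin, had 838, 1120, 1111 and 1213 CPM in stem-like cells, where the diets overlapped (log2 0.22, SE 0.21, adjusted p = 0.919). Its whole-gland level was 373 and 422 CPM in CTRL and 439 and 436 in HFD. Those diets did not overlap, but the log2 difference was only 0.10 (SE 0.07, adjusted p = 0.676). Txn1 (chr4:57943373-57956411), cytosolic thioredoxin and the partner that Txnip binds, had 471, 585, 482 and 590 CPM in stem-like cells (log2 -0.01, SE 0.20, adjusted p = 0.999) and 207, 222, 213 and 229 in the whole gland. In the 3 classes where Txnip rose, the diets overlapped in Txn1: gonadotrope-like cells had 361 and 440 CPM in CTRL and 365 and 354.5 in HFD (log2 -0.01, SE 0.10), and lactotrope-like cells 214 and 238 against 231 and 228 (log2 -0.03, SE 0.10). Txn1 was lowest in somatotrope-like cells, at 97.6 to 133.5 CPM.

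Txnrd1 (chr10:82833951-82897712), the cytosolic thioredoxin reductase, had 238, 421, 228 and 236 CPM in stem-like cells. CTRL 2 stood apart there and the other 3 libraries lay close together (log2 -0.54, SE 0.29, adjusted p = 0.904; -0.022 without CTRL 2). Macrophage-like cells had the same layout, 114 and 256 CPM in CTRL against 86.3 and 84.8 in HFD (log2 -1.07, SE 0.31, adjusted p = 0.649). The macrophage-like difference was -0.36 without CTRL 2 and -1.56 without CTRL 1. With no low-count filter edgeR called it (-1.05, adjusted p = 0.00283). The whole-gland level was 75.7, 90.0, 75.6 and 72.4 CPM (log2 -0.20, adjusted p = 0.530). Reads of the overlapping genes Eid3, Gm38560 and Gm47073 could not be checked apart from it.

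Gclc (chr9:77754535-77794485) and Gclm (chr3:122245557-122270732) encode the catalytic and modifier subunits of glutamate-cysteine ligase, which sets the rate of glutathione synthesis. Gclc had 179, 225, 183 and 213 CPM in stem-like cells and at most 41.8 in any library of any other class, with overlapping diets (log2 -0.05, SE 0.18, adjusted p = 0.981). Gclm had 102.4, 101, 99.6 and 142 there (log2 0.23, SE 0.20, adjusted p = 0.911), against 75.65 or less elsewhere. Their whole-gland levels were 32.7, 31.2, 28.8 and 34.15 CPM for Gclc and 39.6, 37.9, 36.1 and 46.2 CPM for Gclm. Neither passed the test in any class, with log2 differences from -0.52 to 0.37 for Gclc and from -0.08 to 0.23 for Gclm. Gclm overlaps a processed pseudogene, Gm6061, on its own strand, so its counts are less certain.

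Gstm1 (chr3:108012255-108017973), a glutathione transferase with near-identical neighbours of its family, had 1126, 1541, 1294 and 1410 CPM in stem-like cells (log2 -0.01, SE 0.22, adjusted p = 0.999). It fell off to 307 to 621 CPM in mesenchymal-like cells and below 91 in every other class. Within stem-like cells it was higher in the cluster with few immediate-early transcripts (1742 to 2240 CPM) than in the larger cluster (1041 to 1524 CPM). In mesenchymal-like cells the diets did not overlap, at 484 and 621 CPM in CTRL and 307 and 363 in HFD (log2 -0.74, SE 0.22, adjusted p = 1.00). The same held for macrophage-like cells, at 37.0 and 74.0 against 19.99 and 18.4 (log2 -1.48, SE 0.37, adjusted p = 0.514), 2.78% of the stem-like level. That difference was -0.52 with putative doublets kept, -0.83 with the listed genes left out of the clustering and -0.90 without CTRL 2. Whole-gland levels were 130, 122, 107 and 130 CPM.

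Nqo1 (chr8:107388225-107403206), a quinone reductase often used as a marker of NRF2 activity, was sparse. Somatotrope-like cells had 17.5, 15.8, 18.25 and 13.9 CPM in CTRL 1, CTRL 2, HFD 1 and HFD 2 (log2 -0.22, SE 0.14, adjusted p = 0.452). It could be tested in 5 classes only and stood at 10.6, 8.70, 11.1 and 8.05 CPM in the whole gland. None of the 5 passed the test.

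Hmox1 (chr8:75093621-75100589), which opens the heme ring and is used by macrophages to recycle iron, had 676, 434, 538 and 320 CPM in macrophage-like cells, with overlapping diets (log2 -0.34, SE 0.27, adjusted p = 0.971; 0.0042 without CTRL 1 and 0.0056 without HFD 2). The whole gland was flat at 22.8, 22.9, 23.1 and 22.8 CPM. In somatotrope-like cells, at 2.36% of the macrophage-like mean, Hmox1 had 12.9 and 18.25 CPM in CTRL and 7.98 and 7.16 in HFD. The log2 difference was -1.19 (SE 0.15, adjusted p = 0.0761), which did not pass. In that class 0.0548% of all genes passed and 0 of 10 antioxidant genes. At an unadjusted p under 0.05 there was 1 of the 10, against 18.2% of all genes. DESeq2 called it (adjusted p = 6.53e-06), as did edgeR with the crossed pairing of libraries (-1.18, adjusted p = 0.00152). Both of these runs called many more genes in this class than the main fit, up to 720 against 8. Without CTRL 1 the log2 difference of Hmox1 was -1.36. The lactotrope-like minus somatotrope-like log2 difference of Hmox1 was 1.24 (SE 0.19, adjusted p = 0.0295, edgeR), with lactotrope-like levels of 4.21, 7.30, 6.65 and 5.675 CPM, and did not pass without HFD 1 (1.22, adjusted p = 0.16).

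The somatotrope-like Hmox1 levels differed between the clusters, which were built from the same RNA. Cluster 3, rich in immediate-early transcripts (13229 to 17614 CPM), had 21.3, 25.1, 29.0 and 17.4 CPM of Hmox1 in CTRL 1, CTRL 2, HFD 1 and HFD 2. Cluster 0 had 8.78 and 10.8 in CTRL against 6.60 and 5.24 in HFD, and cluster 2, where immediate-early transcripts summed to at most 1802 CPM and most cells were of HFD, had 5.20 and 4.11 against 2.93 and 3.94. The diets thus overlapped in cluster 3 and did not overlap in clusters 0 and 2. In cluster 2 the CTRL sums came from 81 and 100 cells (1152857 and 1217562 UMIs), so a few Hmox1 UMIs decide that order. Over the whole class, immediate-early genes summed to 8449 and 12245 CPM in CTRL and 5067 and 6010 in HFD, and 4 of 25 tested fell (Btg2, Gadd45b, Csrnp1 and Klf4), as did 0.048% of all genes. Their part in the Hmox1 difference was not tested. In endothelial-like cells Hmox1 lay the other way, at 29.3 and 40.3 CPM in CTRL and 52.7 and 53.75 in HFD (log2 0.61, SE 0.22, adjusted p = 1.00; 0.36 without CTRL 1). In stem-like cells it was 61.7 to 120 CPM in the cluster rich in immediate-early transcripts and 4.19 to 8.54 in the other. That other cluster held 164731 to 644101 UMIs per library, so its Hmox1 levels rest on few UMIs.

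**Figure D5:**
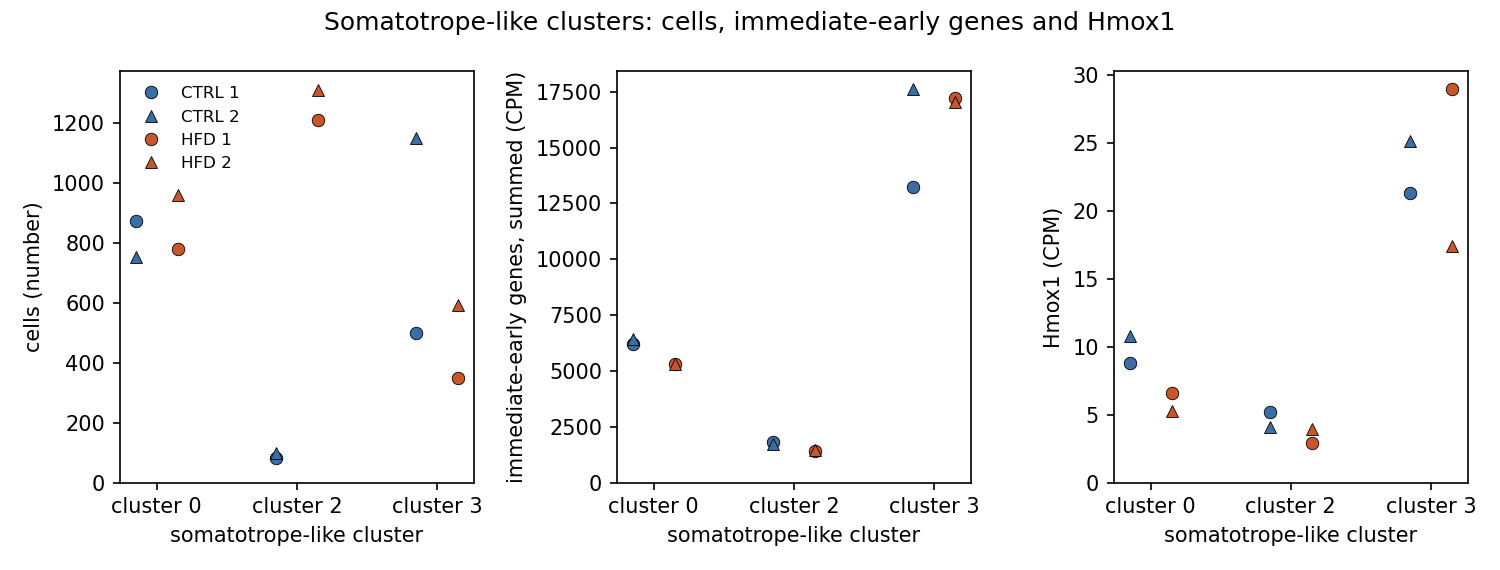
For the 3 somatotrope-like clusters, the number of cells, the summed CPM of 26 immediate-early genes and the CPM of Hmox1, with 1 point per library (blue CTRL, orange HFD). Cluster 2 is mostly HFD cells and low in both readouts, and cluster 3 is high in both, with Hmox1 between 17.4 and 29.0 CPM.

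The calls over all genes were few in the other comparisons. In the whole gland 0.0108% of genes passed, and 0 of 10 antioxidant genes did with edgeR or DESeq2. At an unadjusted p under 0.05 it had 1 of the 10, against 9.63% of all genes. Melanotrope-like cells had 0.00778% of genes passing, and at an unadjusted p under 0.05 they had 0 of 9 antioxidant genes and 5.9% of all genes. Macrophage-like cells had 0.0148% of genes passing, and at an unadjusted p under 0.05 they had 4 of 9 antioxidant genes (Srxn1, Txnrd1, Gstm1 and Txnip) and 6.09% of all genes. Stem-like, endothelial-like and mesenchymal-like cells each had 0% of genes passing with edgeR. At an unadjusted p under 0.05 they had 2 of 10, 1 of 9 and 1 of 10 antioxidant genes, and 5.05%, 2.74% and 4.0% of all genes. With DESeq2, 15, 3 and 2 genes passed in those classes and no antioxidant gene. Over the 10 classes DESeq2 called 2 pairs, Txnip in gonadotrope-like and Hmox1 in somatotrope-like cells. The share of all gene-class pairs that DESeq2 called is not given here, so this count has no background beside it.

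Over 8 lists of 118 genes of the wider pathways, 1 of 945 gene-class pairs (0.106%) passed with edgeR, against 0.399% of all gene-class pairs. Mthfd2, a mitochondrial folate enzyme listed here under NADPH supply, rose in gonadotrope-like cells from 49.3 and 42.6 CPM to 64.5 and 70.6 (log2 0.70, SE 0.11, adjusted p = 0.0262, edgeR). At an unadjusted p under 0.05 there were 113 pairs (11.96%), against 9.83% of all gene-class pairs. DESeq2 called 9 pairs, and its share of all gene-class pairs is not given here. In the whole gland 0 of 116 genes passed with edgeR (9 at an unadjusted p under 0.05), and DESeq2 called 1, Glrx5. Over the 10 classes the lists' median log2 differences ran from -0.44 (other NRF2 targets in macrophage-like cells, 7 genes tested, against -0.0022 over all genes) to 0.38 (Txnip regulators and relatives in mesenchymal-like cells, 6 genes tested, against -0.0035). In somatotrope-like cells they ran from -0.13 (NRF2 regulators) to 0.15 (superoxide and hydrogen peroxide removal, 3 genes tested), against -0.00196 over all genes.

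In somatotrope-like cells none of the list genes passed with edgeR, and the largest differences are given as values. For thioredoxin and peroxiredoxin genes they were those of Sesn2 (log2 -0.53), Glrx5 (0.39) and Glrx (0.26). For glutathione genes they were Mgst1 (1.30, with HFD 1 apart at 23.0 CPM against 4.01 to 7.25), Gstt1 (0.85) and Slc3a2, the heavy chain of the cystine transporter (-0.57). NADPH supply had Taldo1 (0.40), Idh1 (-0.33) and Me1 (0.22), peroxide removal had Cat (0.23), Sod2 (0.15) and Sod1 (-0.15), and iron handling had Ftl1, the ferritin light chain (-0.37), Tfrc (-0.25) and Flvcr1 (-0.21). Among NRF2 regulators the small Maf genes Maff (-1.41) and Mafk (-0.80) and the repressor gene Bach2 (-0.54) were lower. Other NRF2 targets had Osgin1 (-0.98), Ephx1 (-0.74) and Akr1b8 (0.37). The arrestin relatives of Txnip had Arrdc4 (-0.67), Arrdc3 (-0.48) and Arrdc1 (0.24). DESeq2 called Ftl1, Arrdc4, Taldo1, Glrx5, Maff and Slc3a2 in this class, where it called many more genes over all than edgeR (8).

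In lactotrope-like cells none passed either. Here the glucose-responsive relative Arrdc4, which shares regulators with Txnip, had 14.4, 19.3, 18.8 and 22.2 CPM in CTRL 1, CTRL 2, HFD 1 and HFD 2 (log2 0.23, adjusted p = 0.671), with overlapping diets, and Arrdc2 had -0.65 and Slc2a1, a glucose transporter, -0.20. The largest values in the other lists were those of Msra (-0.75), Nxn (0.65) and Txnrd3 (-0.64), Mgst1 (0.91), Gstt3 (0.91) and Gstp1 (-0.65), G6pdx (-0.53), Nnt (0.23) and Me1 (-0.23). Further values were Cat (-0.28), Sod2 (0.16) and Sod1 (-0.06), Tfrc (-0.26), Flvcr1 (-0.13) and Fth1 (0.13), Bach2 (0.63), Maff (-0.39) and Mafg (0.24), and Aox1 (0.32), Abcc4 (-0.20) and Akr1b8 (0.15). The symbol Nnt is carried by 2 gene rows, of which 1 was used.

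Over the 40 class-by-library sums, the genes fell into a group that followed stem-like cells and a few that did not. The correlation of log2(CPM + 1) was 0.83 between Txn1 and Gclm, 0.82 between Gclc and Gclm and 0.78 between Prdx1 and Gclm, while Srxn1 correlated with no other antioxidant gene above 0.30. Sums of a class share cell type and sums of a library share depth, so these are descriptions. Among 9406 genes of at least 10 CPM on average, those most like Txnip were Map1lc3b (0.90), Spop (0.90) and Tsc22d3 (0.89). Those most like Srxn1 were Trmt61b (0.96), Homer1 (0.95) and Eprs (0.94), and those most like Hmox1 Vps26a (0.95), Nfkbiz (0.93) and Ifnar1 (0.92). Gstm1 was nearest to Gstm2 (0.94), Tril and Plat (both 0.94), and Gclc to Mlc1 (0.92), Gpha2 (0.91) and Hey2 (0.90). Gclm was nearest to Psma4 (0.91), S100a1 (0.91) and Cyb5b (0.90), Prdx1 to Tomm22 (0.91), Eno1 (0.89) and Dipk1a (0.89), and Txn1 to Chst11 (0.92), Kifc3 (0.89) and Pcdh7 (0.86). Txnrd1 was nearest to Srf (0.84), Cdc42se1 (0.84) and Nfil3 (0.82), and Nqo1 to Rbl2 (0.88), Perp (0.86) and Fads1 (0.84).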

How the data were processed

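The authors deposited raw UMI counts (whole numbers) for each gene and barcode, per the file headers. Cell Ranger 6.1.2, Seurat 4.3 and mm10 are named, without roles, per the submitters' processing notes, and no authors' cell annotation was used. Cells needed 500 genes or more and no more than 20% of UMIs from mitochondrial genes. Copies of barcodes with at least 5 times more UMIs in another library were removed, a rule made after seeing the data. A total of 1321 putative doublets were removed (simulated doublets, 0.8% per 1000 cells). Clustering used 2000 variable genes, 30 components, 20 neighbours and Leiden at resolution 0.8 (scanpy 1.11.5, leidenalg 0.10.2). Clusters took the class with the highest mean marker fold, with at least 3 markers detected. Clusters led by Cck and Apoc3 and by Igkc with T-cell genes were left unnamed after they were seen, before diets were compared. Summed counts were tested with edgeR 4.0.16 (TMM, its low-count filter), tested on simulated data. Alternatives were RLE scaling, DESeq2 1.42.0, other filters and each library left out. This scaling differs from plain CPM by -0.15 (log2, median gene) in somatotrope-like and 0.15 in gonadotrope-like cells and by at most 0.0772 elsewhere, and log2 differences are relative to it. Members and lists were chosen with earlier results of these data known. Genes were named by a fixed rule: all members, a member's difference if it passed, in its highest class, or with diets apart by a log2 of 0.5 at 10 CPM or more, list genes that passed or else the 3 largest in the 2 largest classes, and the 3 genes most like each member.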

Additional observations from a re-analysis of the deposited data

Results flagged for a closer look

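In a test of the difference itself, the log2 diet difference in lactotrope-like cells minus that in somatotrope-like cells was 1.14 for Txnip and 1.24 for Hmox1 (adjusted p = 0.0188 and 0.0295, edgeR). For Hmox1 the fitted difference within somatotrope-like cells was -1.19. Both passed with RLE scaling and with the shared barcodes kept, and neither passed without HFD 1.

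Srxn1 lay higher in both HFD libraries in corticotrope-like cells (log2 1.10, and 0.71 without CTRL 1) and lower in both in stem-like (-1.43, and -0.69 without CTRL 2), gonadotrope-like (-0.54, and -0.28 without CTRL 2) and macrophage-like cells (-1.14). Hmox1 lay lower in both HFD libraries in somatotrope-like cells (-1.19) and higher in both in endothelial-like cells (0.61, and 0.36 without CTRL 1). These opposite directions between classes were not tested against each other, and none of the 6 differences passed on its own in the main edgeR fit.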

How the results depend on the processing

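The 3 gene-class pairs that passed became 9 with no low-count filter and 1 with putative doublets kept, and 4 to 8 with 1 library left out. No antioxidant gene passed in the whole gland under any alternative run. Txnip in gonadotrope-like cells kept its call throughout. In lactotrope-like cells the log2 difference of Txnip was 0.89 with DESeq2, 0.89 with the listed genes left out of the clustering and 0.85 with doublets kept, none past the threshold, and 0.54 to 1.36 with 1 library left out. In thyrotrope-like cells it was 0.66 with DESeq2, 0.66 with doublets kept and 0.68 with the crossed pairing, none past it, and 0.48 to 0.88 with 1 library left out. The lactotrope-like minus somatotrope-like differences ranged from 0.90 to 1.40 for Txnip and from 1.10 to 1.45 for Hmox1 with 1 library left out, and 0 to 2 genes passed. The cause was not tested in any of these.

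Small differences in stem-like cells changed sign, none past the threshold in either form. With 1 library left out these ranged from -0.0054 to 0.49 for Prdx1, -0.19 to 0.21 for Txn1, -0.24 to 0.17 for Gclc, -0.085 to 0.48 for Gclm and -0.25 to 0.28 for Gstm1. With doublets kept Txn1 was at 0.029 and Gstm1 at 0.041, and Gstm1 was at 0.0076 with the crossed pairing. Hmox1 in macrophage-like cells ranged from -0.78 to 0.0056 with 1 library left out.

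Same-numbered libraries are not stated to be paired. Their deviations correlated between -0.18 and 0.36 over classes, which does not settle whether the numbers pair them. With the replicate block 4 pairs passed, Txnip was at 1.04 in gonadotrope-like, 0.94 in lactotrope-like and 0.65 in thyrotrope-like cells, all past the threshold, and Gstm1 in stem-like cells changed sign to 0.0073. The crossed pairing, added after seeing the data, also gave 4 pairs. It was added because the somatotrope-like correlation was -0.18.

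Counts over all genes moved more. In gonadotrope-like cells 210 genes became 9 with doublets kept, 1180 with no low-count filter, 346 with the replicate block, 517 with the crossed pairing and 63 to 288 with 1 library left out. In lactotrope-like cells 193 became 591, 573 (no filter, crossed) and 163 to 481, and in thyrotrope-like cells 22 became 6 with DESeq2, 12 with doublets kept, 102 with no filter, 77 and 10 with the block and the crossed pairing and 52 to 110. In somatotrope-like cells 8 became 356 with DESeq2, 720 crossed, 3 with no filter, 13 with the block and 3 to 59. The 135 genes of the lactotrope-like against somatotrope-like test became 954 with no filter and 20 to 299 with 1 library left out. The other 7 comparisons ranged from 0 to 676 calls. With 2 libraries per diet, and 1 left after leaving one out, the lone library was assumed to vary like the other diet.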
